A study of Mus musculus with 2 samples.

Results

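The INO80 complex genes are described here by the SRCAP peaks at their promoters. Of 21938 protein-coding genes, 10 were chosen from those that encode subunits of the complex, namely Ino80, Ino80b, Ino80c, Ino80d, Ino80e, Actr5, Actr8, Nfrkb, Mcrs1 and Tfpt. The rule uses membership of the complex and no measured value, but the genes were picked with earlier results of these data known. Both samples are SYAT cells, mouse embryonic stem cells of the CGR8 line in which both alleles of Srcap carry YPet and an auxin-inducible degron (YPet-AID) and which stably express OsTir1. The line goes back to 1 homozygous clone and was sorted for cells that lose YPet when auxin is given. Both were kept in medium with auxinole, the labels' control condition (NT), so that the tagged SRCAP was not degraded, and they form 1 group of 2 replicates. The concentration of auxinole is not given here, because the labels and the study's methods state it in different units. SRCAP was mapped by CUT&Tag, in which an anti-GFP antibody that recognises YPet brings the Tn5 transposase to the tagged protein. The study's reporting form describes its replicates in general as grown and treated separately, which the labels do not state for these samples. Peak lists hold no expression values, so the labelled cell type could not be checked against marker genes. Neither cells given auxin nor a control library were analysed here.

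INO80 is an ATP-dependent chromatin remodeler that slides and spaces nucleosomes. It belongs to the same remodeler family as SRCAP, which swaps H2A for the variant H2A.Z, and INO80 has been linked to the turnover of H2A.Z as well. In embryonic stem cells, INO80 is known for supporting the expression of pluripotency genes. A gene had a promoter peak in a replicate if a peak of that list overlapped its promoter by 1 bp or more. Promoters reached from 1000 bp before to 500 bp after each annotated transcription start site (TSS). The peak lists held 6158 peaks in replicate 1 and 12958 in replicate 2. They give no read numbers, so depth was unknown and a missing peak does not show that SRCAP was absent.

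To show the promoters that the results turn on, 4 RefSeq sequences of build GRCm38.p6 are given 5′ to 3′ from 250 bp before to 50 bp after the TSS. RefSeq promoter sequences were found for 6 of the 10 genes. Ino80 had peaks in both replicates, Nfrkb and Mcrs1 in replicate 2 only, and Tfpt in neither. Capitals mark matches on either strand to CCAAT (NF-Y), GGGCGG (SP factors) or CCGGAAG (ETS factors).
Ino80, chr2:119477638-119477937, minus strand: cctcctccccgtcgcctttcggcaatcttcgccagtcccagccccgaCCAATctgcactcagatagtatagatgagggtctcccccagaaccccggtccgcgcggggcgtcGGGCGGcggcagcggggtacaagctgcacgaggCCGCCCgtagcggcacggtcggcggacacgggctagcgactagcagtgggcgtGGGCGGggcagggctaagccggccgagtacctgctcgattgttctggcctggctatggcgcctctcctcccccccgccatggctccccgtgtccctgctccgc
Nfrkb, chr9:31385942-31386241, plus strand: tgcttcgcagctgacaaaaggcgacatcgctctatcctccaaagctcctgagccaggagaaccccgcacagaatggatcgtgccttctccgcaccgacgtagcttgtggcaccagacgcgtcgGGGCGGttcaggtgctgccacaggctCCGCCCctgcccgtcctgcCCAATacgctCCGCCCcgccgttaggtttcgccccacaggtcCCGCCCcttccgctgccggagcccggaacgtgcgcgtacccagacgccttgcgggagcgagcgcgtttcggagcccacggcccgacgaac
Mcrs1, chr15:99251912-99252211, minus strand: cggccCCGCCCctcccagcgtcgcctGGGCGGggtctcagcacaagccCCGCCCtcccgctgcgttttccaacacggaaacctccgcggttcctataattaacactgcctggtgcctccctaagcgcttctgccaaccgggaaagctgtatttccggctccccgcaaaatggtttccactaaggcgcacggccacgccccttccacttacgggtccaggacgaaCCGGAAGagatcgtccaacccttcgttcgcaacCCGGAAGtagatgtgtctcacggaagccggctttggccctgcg
Tfpt, chr7:3629880-3630179, minus strand: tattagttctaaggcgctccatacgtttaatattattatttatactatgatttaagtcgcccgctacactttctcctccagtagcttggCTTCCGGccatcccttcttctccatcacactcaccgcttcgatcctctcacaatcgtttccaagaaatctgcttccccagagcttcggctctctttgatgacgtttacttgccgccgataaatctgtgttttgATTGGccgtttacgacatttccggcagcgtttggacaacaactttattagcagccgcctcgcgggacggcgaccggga

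The Ino80 sequence lay in the replicate 1 peak over all 300 bases and in a replicate 2 peak over 217 bases. It held CCAAT starting at position -203 and GGGCGG or its reverse complement at -139, -106 and -53, counted from the TSS as position 1 with no position 0. Nfrkb lay in its replicate 2 peak over 265 of the 300 bases, with CCAAT at -82 and 4 matches to GGGCGG on either strand. In Mcrs1, only 39 of the bases shown lay in the peak, which began just downstream of the TSS of this sequence and ran further downstream. Matches to GGGCGG on either strand at -245, -224 and -202 and to CCGGAAG at -26 lay outside the peak. The match to CCGGAAG that started at 8 lay only partly inside it. The Tfpt sequence was in no peak and held the reverse complements of CCGGAAG at -161 and of CCAAT at -28. A match is a description of these letters and not a binding site.

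SRCAP peaks were found at the promoters of 6 of the 10 INO80 genes. In replicate 1 these were Ino80 and Actr5, 20.0% of the genes (95% Wilson interval 5.67 to 51.0%), against 15.7% of all protein-coding genes. In replicate 2 they were Ino80, Ino80c, Actr8, Nfrkb and Mcrs1, 50.0% (23.7 to 76.3%), against 30.4%. The mean number per list was 3.5 ± 2.12 (SD, n = 2). Only Ino80 had a peak in both replicates, 10.0% (1.79 to 40.4%), against 12.0% of protein-coding genes, and 60.0% (31.3 to 83.2%) had one in either, against 34.0%. Each of these 4 intervals contains the share of all protein-coding genes, so with 10 genes no difference from the other genes was detectable. Across protein-coding genes, 76.7% of those with a peak in replicate 1 also had one in replicate 2, and 39.7% the other way round. Among the INO80 genes, this held for 1 of 2 and 1 of 5.

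**Figure D1:**
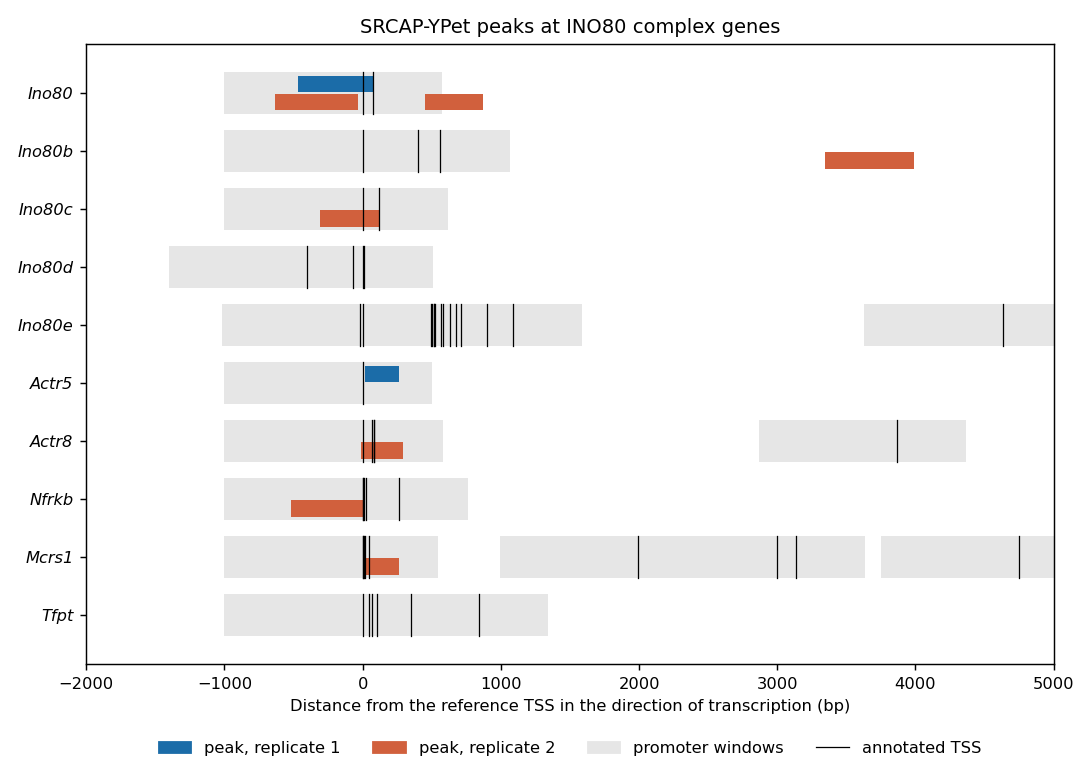
SRCAP peaks at the 10 INO80 genes, by distance in bp from the reference TSS (the start of most protein-coding transcripts) in the direction of transcription. Blue and orange bars are peaks of replicate 1 and replicate 2, grey areas the promoter windows and black lines annotated TSSs, with windows beyond 5000 bp not drawn. Ino80 is the only gene with bars of both colours, and Ino80d, Ino80e and Tfpt have none in the drawn range.

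**Figure D2:**
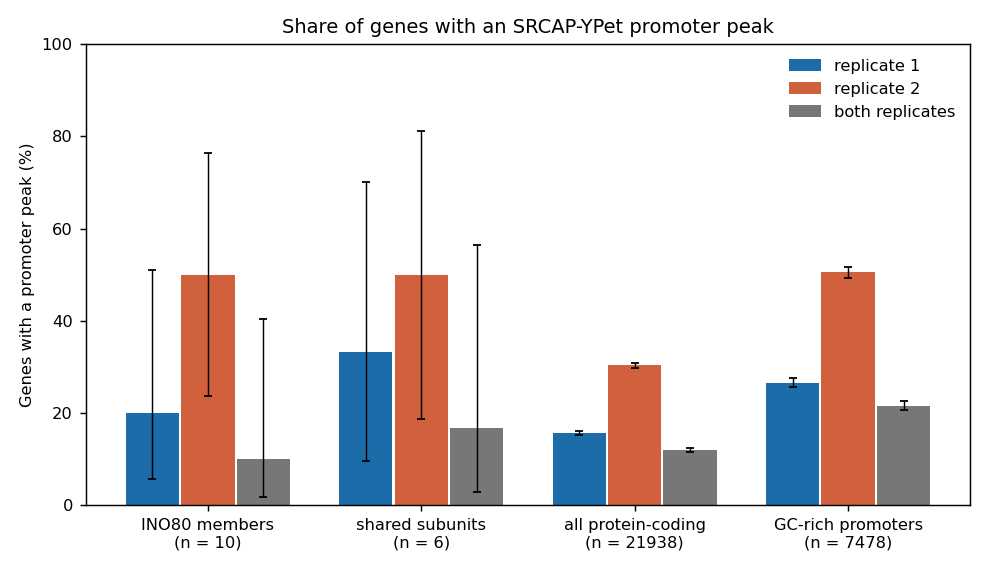
Percentage of genes with a promoter peak in replicate 1, replicate 2 or both, for the INO80 genes, 6 subunits shared with other complexes, all protein-coding genes and genes with a GC-rich promoter. Error bars are 95% Wilson intervals, which cover counting error only, and those of the INO80 genes span the shares of all protein-coding genes (15.7%, 30.4% and 12.0%).

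Ino80 encodes the ATPase of the complex and had the highest score among the INO80 genes in each list. On chromosome 2 (minus strand), replicate 1 had a peak of 551 bp at 119477602 to 119478152 with a score of 57. Replicate 2 had a peak of 604 bp at 119477721 to 119478324 with a score of 85. The score comes from the authors' peak caller and was read as −log10 of a q-value multiplied by 10, which is not comparable between lists of unknown depth. Within its own list, 20.2% of peaks at protein-coding promoters scored at least as high in replicate 1 and 12.8% in replicate 2.

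The peaks of Ino80 shared 432 bp, which is 78.4% of the replicate 1 peak and 71.5% of the replicate 2 peak. Their midpoints lay 190 bp and 335 bp upstream of the nearest TSS. The replicate 1 peak reached 86 bp into the first exon, all of it noncoding, and covered 2 of the 3 annotated TSSs. The replicate 2 peak lay wholly upstream of the gene and contained no TSS. Replicate 2 had another peak of 419 bp at 119476817 to 119477235 (score 60), wholly in an intron, with its midpoint 587 bp downstream of the nearest TSS. The 2 replicate 2 peaks were 485 bp apart and the replicate 1 peak covered both TSSs in this gap. An intronic peak farther into Ino80, at 119463611 to 119464162 (score 40), was again in replicate 2 only and outside the promoter windows.

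The actin-related proteins ARP5 and ARP8 are encoded by Actr5 and Actr8. ARP5 forms a module on the ATPase that couples its activity to nucleosome sliding, while ARP8 belongs to a module that binds DNA next to the nucleosome. Actr5 had a peak in replicate 1 only, of 242 bp at 158624908 to 158625149 of chromosome 2, with a score of 35 and a midpoint 140 bp downstream of the TSS. It was one of the narrowest, since only 4.53% of promoter peaks in replicate 1 were as narrow, and its score was near the middle of its list (52.4% of promoter peaks scored at least as high). All its bases were in exon 1 of the gene, 8 of them coding. Actr8 had a peak in replicate 2 only, of 304 bp at 29978327 to 29978630 of chromosome 14, with a score of 37, a midpoint 60 bp downstream of the nearest TSS and 4 TSSs inside. It held 294 exonic bases, of which 123 were coding, and 60.6% of promoter peaks in replicate 2 scored at least as high.

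Ino80b and Ino80c encode the mammalian counterparts of the yeast subunits Ies2 and Ies6, of which Ies6 pairs with ARP5. Ino80c had a peak in replicate 2 only, of 436 bp at 24121825 to 24122260 of chromosome 18, with a score of 52 and a midpoint 89 bp upstream of the nearest TSS. It covered 2 of the 3 TSSs and 129 bases of noncoding exon, and 37.4% of promoter peaks in replicate 2 scored at least as high. Ino80b had no promoter peak in either replicate. The nearest peak in replicate 2, of 650 bp at 83121439 to 83122088 of chromosome 6 (score 66), lay at the other end of the gene, over 324 bases of its exons. Its midpoint was 204 bp from a TSS of Wbp1, a neighbouring gene named only after the peak had been seen.

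Ino80d, Ino80e, Nfrkb, Mcrs1 and Tfpt encode subunits without a yeast counterpart, most of which assemble on the N-terminal part of the ATPase. Nfrkb had a peak in replicate 2 only, of 536 bp at 31385671 to 31386206 of chromosome 9, with a score of 57. Its midpoint lay 254 bp upstream of the nearest TSS and its edge reached 3 TSSs, with 521 bp outside the gene. Mcrs1 had a peak in replicate 2 only, of 252 bp at 99251699 to 99251950 of chromosome 15, with the lowest score of the INO80 genes in that list, 29, which 77.2% of promoter peaks reached. This peak was in the first part of the gene, its midpoint 93 bp downstream of the nearest TSS, and it also contained a TSS of 1700120C14Rik, a noncoding transcript on the opposite strand. In all, the members had 2 promoter peaks in replicate 1 and 6 in replicate 2, 4 with an upstream and 4 with a downstream midpoint, and the midpoints were between 60 bp and 587 bp from the nearest TSS.

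Ino80d, Ino80e and Tfpt had no promoter peak. Prpf31, a splicing factor gene, starts on the opposite strand 56 bp upstream of the reference TSS of Tfpt, and Hirip3 likewise 78 bp upstream of that of Ino80e. Neither Prpf31 nor Hirip3 had a promoter peak in either list. At Ino80d, the antisense transcript Ino80dos starts 171 bp downstream of the reference TSS, again without a peak. Replicate 2 had 2 low-scoring peaks inside Ino80d but outside its promoter windows, at 62984408 to 62984656 (score 14, intronic) and at 63058003 to 63058413 of chromosome 1 (score 20, exonic over all 411 bp). Mir6947, a microRNA gene inside Actr8, starts 10551 bp downstream of the reference TSS within a promoter window of a short Actr8 transcript and had no peak.

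A peak in 1 replicate only was not a peak just beyond the window in the other. For the 5 genes with a single-replicate peak, the nearest peak of the other list was 35.1 kb from the windows for Actr5, 43.7 kb for Ino80c, 9.0 kb for Actr8, 104.9 kb for Nfrkb and 144.2 kb for Mcrs1. For the 4 genes with no promoter peak, the nearest replicate 1 peak was 13.8 kb away for Tfpt, 24.7 kb for Ino80e, 184.5 kb for Ino80b and 397.6 kb for Ino80d. In replicate 2, the distances were 2.3 kb for Ino80b, 4.6 kb for Ino80d, 11.0 kb for Tfpt and 21.1 kb for Ino80e. Ino80 was thus the only member with a promoter peak in each list, and for the others the nearest peak of at least 1 list lay kilobases away.

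**Figure D3:**
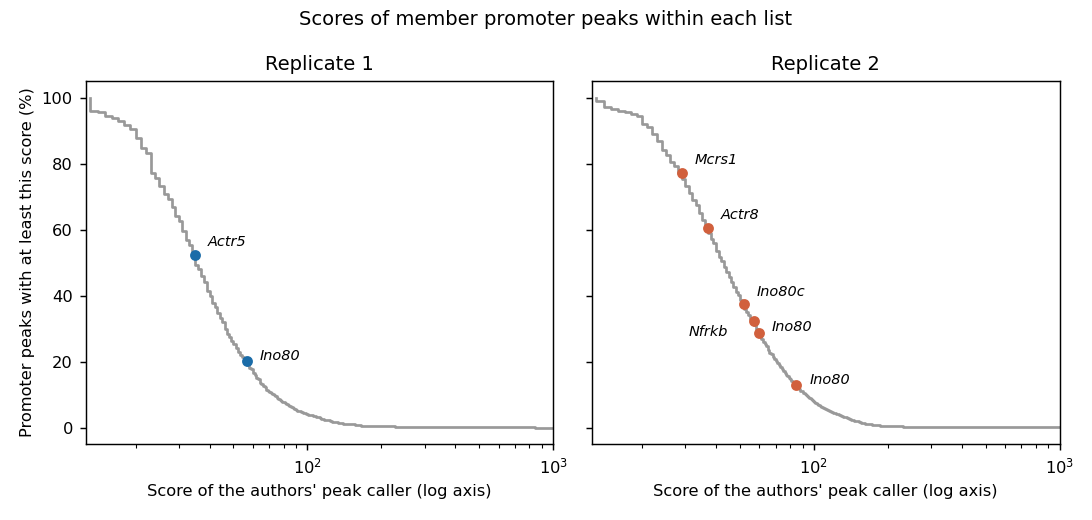
Percentage of peaks at protein-coding promoters (y axis) with at least a given score of the authors' peak caller (x axis, log scale), for each list. Points are the promoter peaks of INO80 genes, from the 57 of Ino80 and 35 of Actr5 in replicate 1, and from 85 at Ino80 down to 29 at Mcrs1 in replicate 2.

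With only peaks of a score of 50 or more, the genes were Ino80 in replicate 1, and Ino80, Ino80c and Nfrkb in replicate 2. The shares of all protein-coding genes were then 4.21% and 13.1%, and 2.99% in both, where Ino80 remained. When both lists were given the same length, Mcrs1 no longer had a peak in replicate 2, where the share of all protein-coding genes went from 30.4% to 19.2%. When a TSS had to lie inside the peak, Ino80 was left without one in replicate 2 and none of the 10 INO80 genes had one in both replicates. The shares of all protein-coding genes were then 9.73% and 20.6% in the lists of replicate 1 and replicate 2, with 6.97% for both lists together.

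The base composition of the promoters was compared from 1000 bp before to 500 bp after the reference TSS. The median GC content was 53.2% for the INO80 genes, from 46.3% at Ino80b to 63% at Ino80, against 51.9% for 21853 protein-coding promoters. The median ratio of observed to expected CpG was 0.665, from 0.444 at Ino80b to 0.821 at Ino80, against 0.488. Ino80, the gene with a peak in both replicates, was thus the member with the highest value of each, above 93.9% and 90.9% of protein-coding promoters. The second in both measures was Ino80d, with 59.4% GC and a CpG ratio of 0.780, which had no promoter peak. The 6 genes with a peak had a median CpG ratio of 0.692 and the 4 without one 0.613, with ranges that overlapped (0.546 to 0.821 and 0.444 to 0.780).

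GC-rich promoters, with at least 50% GC and a CpG ratio of at least 0.6, were found at 6 of the 10 genes, namely Ino80, Ino80d, Ino80e, Actr5, Nfrkb and Mcrs1, against 34.2% of protein-coding promoters. Of all 7478 genes with such a promoter, 26.6% had a peak in replicate 1, 50.5% in replicate 2, 21.6% in both and 55.6% in either. The intervals of the INO80 genes, which cover all 10 genes and not only the 6 with a GC-rich promoter, contain each of these shares too. The number of TSSs per gene moved with the share as well. Of the INO80 genes 6 had 5 or more TSSs, as did 7831 of the 21938 protein-coding genes. Among the latter with 5 or more TSSs, 23.6% had a peak in replicate 1 and 45.9% in replicate 2, against 6.62% and 13.6% of genes with 1 TSS. The part of these properties in the counts of the INO80 genes was not tested.

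**Figure D4:**
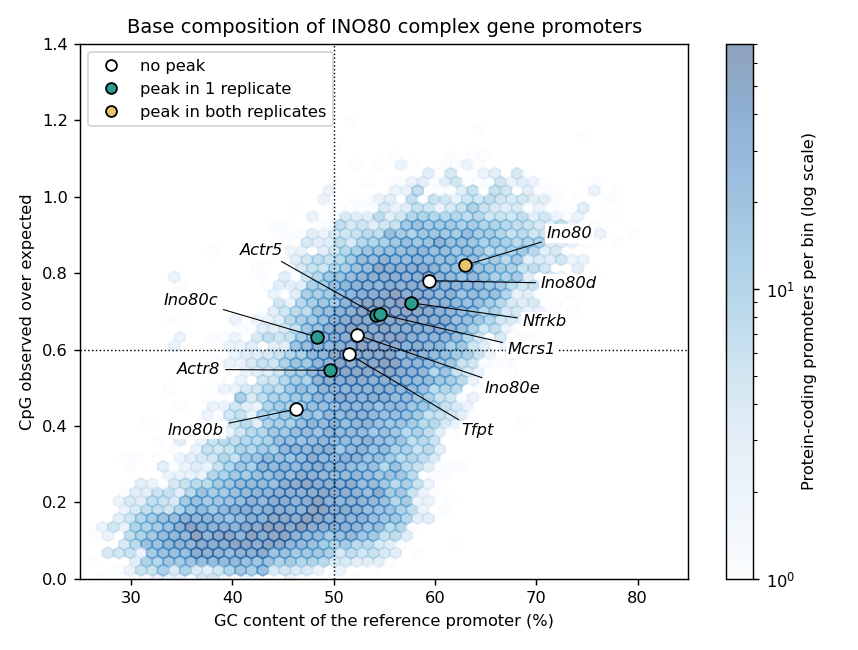
GC content (x axis, %) and ratio of observed to expected CpG (y axis) of the reference promoters of the 10 INO80 genes, over the density of all protein-coding promoters in blue (log scale). Point colour gives the number of replicates with a promoter peak, dotted lines the limits for a GC-rich promoter (50% and 0.6), and Ino80, the point for both replicates, is at 63% and 0.821.

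Short motifs were searched on both strands from 250 bp before to 50 bp after the reference TSS. CCAAT was found at 6 of the 10 INO80 genes, against 38.9% of all protein-coding promoters and 37.2% of GC-rich ones, namely at 3 of the 6 genes with a peak and 3 of the 4 without. GGGCGG was found at 6 genes, against 43.9% of all promoters and 76.8% of GC-rich ones. It was present at 5 of the 6 genes with a peak, all but Actr8, and at 1 of the 4 without, Ino80d. CCGGAAG was found at Ino80c, Mcrs1 and Tfpt, against 11% of all promoters and 18.6% of GC-rich ones. AAGATGGC (YY1), GCATGCGC (NRF1), TGACGTCA (CREB) and the ZBTB33 palindrome TCTCG followed by CGAGA were found at 0 of the 10 genes, against 3.03%, 3.7%, 2.43% and 0.618% of all promoters. These matches depend on the TSS used, since the RefSeq start of Ino80b, which differs from its reference TSS, had AAGATGGC starting at -217, CCGGAAG at -55 and GGGCGG at -13. One of the RefSeq starts of Ino80e, which has no peak either, also had GGGCGG, at -226, and its reverse complement at -101, so the count of GGGCGG among genes without a peak depends on the TSS.

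The INO80 complex also contains subunits that it shares with other complexes or that have other roles. These are the transcription factor YY1, the deubiquitinase UCHL5, the AAA+ ATPases RUVBL1 and RUVBL2, the actin-related protein ACTL6A and actin. Of their 6 genes, replicate 1 had peaks at the promoters of 2 and replicate 2 at those of 3, with 1 in common. These are 33.3% (95% Wilson interval 9.68 to 70.0%), 50.0% (18.8 to 81.2%) and 16.7% (3.01 to 56.4%), and each interval contains the share of all protein-coding genes (15.7%, 30.4% and 12.0%). Actl6a had peaks in both, at 32708519 to 32709019 (score 49) and at 32708354 to 32708907 of chromosome 3 (score 95), which shared 389 bp. Both lay at internal TSSs, with midpoints 2471 bp and 2332 bp downstream of the reference TSS. Yy1 (score 72) and Uchl5 (score 67) had peaks in replicate 2 only. The Uchl5 peak lay wholly upstream of the gene and contained a TSS of the divergent gene Trove2 but none of Uchl5. With a TSS required inside the peak, replicate 2 had 2 of the 6 genes, Yy1 and Actl6a. Ruvbl1 had a peak in replicate 1 only (score 45), and Ruvbl2 and Actb had none. With only peaks of a score of 50 or more, Actl6a kept its replicate 2 peak alone.

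SRCAP and EP400-TIP60 are the related complexes that exchange H2A.Z. Among 6 genes of the SRCAP complex, the replicate 1 list had peaks at 2 promoters and the replicate 2 list at 1, which was Srcap and was also among the former. Among 11 genes of the EP400-TIP60 complex, these counts were 4 and 5, with Brd8, Epc1 and Mbtd1 found by both lists. In the SRCAP complex, 33.3%, 16.7% and 16.7% of the genes thus had a peak in replicate 1, replicate 2 and both, and in the EP400-TIP60 complex 36.4%, 45.5% and 27.3%, against 15.7%, 30.4% and 12.0% of all protein-coding genes. Among the genes found by both lists, the replicate 1 peaks at Brd8 and Mbtd1 and the replicate 2 peaks at Epc1 contained no TSS of the gene. The peaks of the other list at these genes did, as did both Srcap peaks. The Brd8 peaks also contained a TSS of a neighbouring gene. Differences between the genes of these complexes and the INO80 genes were not tested.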

How the data were processed

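SRCAP-YPet CUT&Tag peaks of 2 replicates of SYAT cells (1 group, control condition) were used. For each replicate, the authors deposited a MACS2 peak list called in that replicate alone from paired-end fragments in mm10, with a score. This score was a whole number of 13 or more and was read as −log10 q multiplied by 10, since a q of 0.05 gives 13 without its decimals. STAR and Picard are named in the submitters' processing notes. The study's methods, under a heading for ChIP-seq and CUT&Tag together, describe peak calling after duplicate removal and downsampling by Drosophila reads, with blacklisted regions left out. Its reporting form gives a MACS2 command with an input control in the ChIP-seq part, which is not stated for CUT&Tag. No fold enrichment, summit or depth is included, which limits statements on genes without a peak.

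Genes and TSSs came from GENCODE mouse release 21 without mitochondrial genes, and sequence from GRCm38.p6, the assembly of mm10. Coordinates are 1-based. The reference TSS was that of most protein-coding transcripts, ties going to the most upstream. No test was run, since there is 1 group with 2 replicates. Shares have 95% Wilson intervals, which cover counting error only. The members and lists were chosen with earlier results of these data known. Genes named were the members, shared subunits, genes with a TSS in a member's promoter window or peak, and lists by their counts. Wbp1, Trove2, Srcap, Brd8, Epc1 and Mbtd1 are outside this rule and were named after their values had been seen. The 8 alternatives for peaks and windows are given in the closing section. The overlap code was tested on simulated data. Versions were 3.11.15 for Python, 2.3.3 for pandas, 2.4.6 for numpy, 0.14.6 for statsmodels and 3.10.9 for matplotlib.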

Additional observations from a re-analysis of the deposited data

How the results depend on the processing

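Over 8 alternative settings, 74 of 80 values of the number of replicates with a peak at an INO80 gene did not change. A score of 50 removed the peaks of Actr5, Actr8 and Mcrs1, equal list lengths that of Mcrs1, and a TSS inside the peak that of Actr5 and the replicate 2 call of Ino80. A minimum score of 50 left 1 INO80 gene in replicate 1 and 3 in replicate 2, and 0 shared subunits in replicate 1. Among protein-coding genes it left 923 in replicate 1, 2866 in replicate 2 and 655 in both, against 3445, 6660 and 2643. With a TSS required inside the peak, there was 1 INO80 gene in replicate 1 and 0 in both replicates, and 2135 protein-coding genes in replicate 1 and 1530 in both. With equal list lengths, 4207 protein-coding genes had a peak in replicate 2. These settings remove peaks or narrow the window by construction. The other values, including those with windows of 250 bp and 2000 bp on either side, protein-coding transcripts, 50% of the peak inside the window and merged peaks, stayed within 1.5 times. Leaving out 1 replicate gives the count of the other list, from 2 to 5 INO80 genes. No paired analysis was possible because the samples form 1 group. Depth is unknown, so peaks found in 1 replicate only cannot be told apart from peaks under the threshold in the other list.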
